A study of Mus musculus with 12 samples.

Results

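Bone morphogenetic proteins (BMPs) are secreted ligands of the TGF-beta superfamily. They were followed here through 10 genes: the ligands Bmp2, Bmp4, Bmp5, Bmp6, Bmp7 and Bmp10, the receptors Bmpr1a, Bmpr2 and Acvr1, and the inhibitory Smad6. The genes were chosen by name, and every probe that the platform annotation assigns to one of them was used, 16 probes in all, for 10 of the 17655 genes on the arrays. All 10 were present, 5 of them with a single probe. Atrial RNA of 12 male mice was read on Illumina Sentrix Mouse-6 beadchips. The 6 Tbx3 mice (Cre4-CT) carried both the Nppa-Cre4 transgene, whose Nppa promoter directs Cre recombinase to atrial muscle, and the CT construct, from which Cre switches on the T-box repressor Tbx3. The 6 Control mice carried Nppa-Cre4 alone, so both groups shared that transgene, and an effect of the CT construct itself cannot be told apart from that of Tbx3. The age of the mice is not given in the sources used here, and each array is labelled a biological replicate of its group.

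BMP ligands bind complexes of type I receptors (among them the products of Bmpr1a and Acvr1) and type II receptors (such as that of Bmpr2). The receptors phosphorylate Smad1, Smad5 and Smad9, which enter the nucleus with Smad4 and switch on targets such as the Id genes. Smad6 is itself a target that blocks the pathway as a feedback inhibitor. In the embryonic heart, BMP signalling patterns the atrioventricular canal, where it acts upstream of Tbx2 and takes part in forming the endocardial cushions, the precursors of the valves.

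In the Tbx3 atria Bmp4, Bmp6 and Smad6 rose, and the other 7 genes did not pass the test. Bmp4 rose 2.33-fold, Bmp6 1.54-fold and Smad6 1.57-fold. Counted by gene with the brightest probe, 2 of 6 ligands, 0 of 3 receptors and Smad6 rose, and none of the 10 fell, where 2.97% of all genes rose and 2.98% fell at an adjusted p under 0.05 (limma, Benjamini-Hochberg over all probes). Among the receptors, 1 of 3 was higher and 0 lower at an unadjusted p under 0.05, where 8.51% of all genes were higher and 8.88% lower. The median log2 change was -0.01 over the 6 ligands, 0.10 over the 3 receptors and 0.00 over all genes. In whole atria, a change in the number of cells of a type and a change in RNA per cell cannot be told apart. All 3 genes that rose were among the 5 whose brightest probe lay above the 75th percentile of brightness, a range in which 6.46% of all genes rose. Of the 5 dimmer genes 0 rose or fell, and 0 had an unadjusted p under 0.05. Few dim genes passed at all: of 524 genes that rose and 527 that fell, 475 and 488 lay above that percentile. So 0 of 5 is no result about these genes.

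The promoter windows of the 3 genes that rose are shown because Tbx3 binds DNA through T-box elements and Smads through short GC-rich or GTCTG elements. Each is the run of 250 bases before the transcript start used in the RefSeq promoter table (GRCm38.p6), 5′ to 3′ on the gene's strand, with matches to the T-box core or to either Smad element on either strand in capitals. The windows lie, for Bmp4, at chr14:46390670-46390919 on the minus strand, for Bmp6 at chr13:38345466-38345715 on the plus strand and for Smad6 at chr9:64022060-64022309 on the minus strand.
Bmp4: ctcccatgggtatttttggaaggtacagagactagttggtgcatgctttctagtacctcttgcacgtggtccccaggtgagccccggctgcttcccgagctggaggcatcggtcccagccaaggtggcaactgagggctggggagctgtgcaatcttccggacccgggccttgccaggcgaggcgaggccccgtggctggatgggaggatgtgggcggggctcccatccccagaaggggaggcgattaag
Bmp6: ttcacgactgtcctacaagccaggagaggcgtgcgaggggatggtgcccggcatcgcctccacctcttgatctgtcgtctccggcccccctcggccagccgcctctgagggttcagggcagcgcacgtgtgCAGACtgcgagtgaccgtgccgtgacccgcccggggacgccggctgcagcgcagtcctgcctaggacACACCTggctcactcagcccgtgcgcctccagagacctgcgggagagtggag
Smad6: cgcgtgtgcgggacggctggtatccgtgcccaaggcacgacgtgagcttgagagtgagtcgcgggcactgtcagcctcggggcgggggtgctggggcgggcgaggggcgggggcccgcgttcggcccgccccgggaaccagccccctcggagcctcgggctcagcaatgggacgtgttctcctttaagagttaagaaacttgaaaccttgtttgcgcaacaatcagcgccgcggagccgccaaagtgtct

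The Bmp6 window held 1 match to AGGTGT, the core of the T-box half-site AGGTGTGA, on the minus strand and beginning 52 bases before the start. It also held 1 match to GTCTG on the minus strand, beginning 119 bases before the start. The Bmp4 and Smad6 windows held no match to these or to the GC-rich Smad element GGCGCC. No window of the 8 genes found in the promoter table held the longer AGGTGTGA, which contains AGGTGT and which 1.12% of 32851 windows held. The T-box core was found in 1 of these 8 windows and in 11.8% of all windows. The GC-rich element was found in 2 (Bmpr1a and Bmpr2) and in 9.59% of all, and the GTCTG element in 2 (Bmp5 and Bmp6) and in 42.2% of all. That start lay 26 bases inside the outermost end of the Smad6 gene and 790 bases inside that of Bmpr1a. So 26 bases of the Smad6 window and all 250 of the Bmpr1a window, with its match, fall within the annotated gene, while the other 6 windows lie wholly before it. These matches describe letters in a window and do not show binding. Bmp2 and Bmp7 had no entry in that table.

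Levels are given on a log2 scale after quantile normalization, on which the median over all probes was 5.55. The deposited values were read as natural logs, a base inferred from their range that the sources do not settle. Were the base 2, each log2 change would shrink by a factor of 0.693 and no p-value would move. With no detection calls to use, a dim probe cannot be placed above or below background, so its rank by mean level among all probes is given as a percentile. The number of arrays limits the precision. Of the atrial muscle markers, 9 were on the table and their median brightness lay at the 99.8th percentile. Tbx3 itself did not check the labels: its brighter probe fell by 0.42 (adjusted p = 0.0263) and the other changed by 0.02 (adjusted p = 0.982), and whether either reads the transgene is unknown here.

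**Figure D1:**
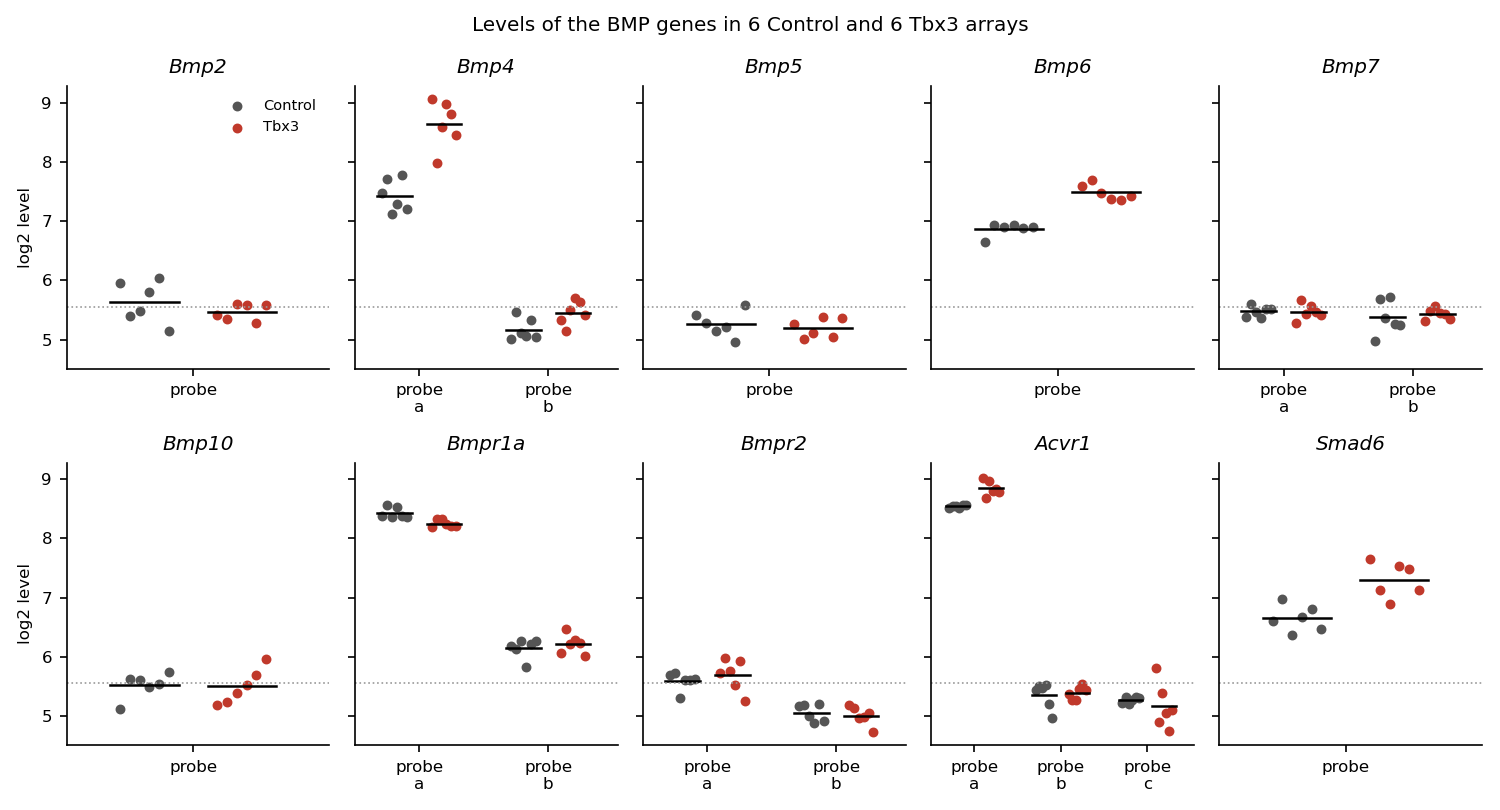
Log2 level (y axis) of each probe of the 10 BMP genes in the 6 Control (grey) and 6 Tbx3 (red) arrays. Each point is 1 array, black bars are group means, the dotted line marks the median of all probes at 5.55, and probes of a gene are lettered from the brightest. The Tbx3 points of Bmp4 probe a, from 7.99 to 9.06, all lie above the Control points, while Bmp2, Bmp5, Bmp7 and Bmp10 lie near the dotted line in both groups.

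Bmp4, a ligand that signals in the second heart field and outflow tract of the embryo, was read by 2 probes, designed on different transcript records. The gene lies at chr14:46383525-46390669 (GRCm38.p6). On the first probe the Control arrays ran from 7.12 to 7.77 with a median of 7.38, and the Tbx3 arrays from 7.99 to 9.06 with a median of 8.70. Every Tbx3 array was above every Control array, and Tbx3 array 2 was the lowest of its group. The mean rose from 7.43 ± 0.27 to 8.65 ± 0.40 (SD, n = 6 each), a log2 change of 1.22 (SE 0.15, 95% interval 0.92 to 1.52, adjusted p = 1.89e-06 in limma).

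The second Bmp4 probe was dim, at the 23.7th percentile against the 91.8th of the first. Its Control arrays ran from 5.01 to 5.47 with a median of 5.08 and its Tbx3 arrays from 5.15 to 5.69 with a median of 5.45. The groups overlapped, and the log2 change of 0.28 (95% interval 0.06 to 0.51) did not pass (adjusted p = 0.222). The signal of the first minus that of the second ran from 2.01 to 2.47 in Control and from 2.84 to 3.73 in Tbx3, a difference of 0.94 between the group means. Its p was 0.00216 in an exact 2-sided permutation test over all 924 splits of the arrays (n = 6 each), the smallest the design can give, and the adjusted p over 6 probe pairs was 0.013. The second probe may lie at background, where a signal can hardly change, so this difference in signal does not show that the transcripts it reads changed less. Averaged over both probes, Bmp4 rose by 0.75 (adjusted p = 0.000936), over 1.5 times less than on the first probe alone. Where in the transcript either probe lies is not known here.

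Bmp6, a ligand of the subgroup that also holds Bmp5 and Bmp7, had a single probe at the 86.5th percentile, and the gene lies at chr13:38345716-38500314. The Control arrays ran from 6.64 to 6.94 with a median of 6.90 and the Tbx3 arrays from 7.35 to 7.69 with a median of 7.45. The groups did not overlap. Tbx3 array 2, the lowest for Bmp4, was the highest for Bmp6, and Control array 1 stood below the other Control arrays. The mean rose from 6.86 ± 0.11 to 7.49 ± 0.13 (SD, n = 6 each), a log2 change of 0.62 (SE 0.10, 95% interval 0.42 to 0.82, adjusted p = 0.00011). Counting brightest probes, 3 of the 10 genes (Bmp4, Bmp6 and Acvr1) had every Tbx3 array above every Control array, as did 1.89% of all genes. All 3 lay above the 75th percentile of brightness, where this held for 306 of 7351 genes.

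The other 4 ligands did not pass on any probe. Bmp2, the ligand of the atrioventricular canal in the embryonic heart, ran from 5.14 to 6.04 in Control (median 5.65) and from 5.28 to 5.61 in Tbx3 (median 5.50). Its log2 change was -0.17 (95% interval -0.43 to 0.09, adjusted p = 0.712). Every Tbx3 array lay within the Control range, and the Control arrays were the more spread, with an SD of 0.35 against 0.14. Bmp10, a ligand made by heart muscle and in the adult by the atrium, ran from 5.11 to 5.74 in Control (median 5.58) and from 5.19 to 5.96 in Tbx3 (median 5.46). Its log2 change was -0.02 (95% interval -0.27 to 0.23, adjusted p = 0.982). The Bmp10 probe lay at the 46.4th percentile, so its level did not stand out from that of the median probe although these are atria. Bmp5 changed by -0.07 (95% interval -0.29 to 0.15, adjusted p = 0.91) at the 15.3rd percentile. The brighter Bmp7 probe changed by -0.01 (95% interval -0.20 to 0.19, adjusted p = 0.995) and the other by 0.06 (adjusted p = 0.93), at the 42.5th and 34.7th percentile. These intervals bound the change of the probe signal, and a dim signal may hold little of the transcript.

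After quantile normalization the brightest probes of Acvr1 and Bmpr1a separated the groups without passing the test. Acvr1, a type I receptor for BMP6 and BMP7, lies at chr2:58446438-58566828. Its brightest probe, at the 94.6th percentile, ran from 8.51 to 8.57 in Control (median 8.54) and from 8.69 to 9.02 in Tbx3 (median 8.82). Every Tbx3 array was above every Control array, and the Control arrays lay within an SD of 0.02 after quantile normalization. The deposited Control values were more spread, from 5.84 to 5.97, and still below every Tbx3 array (6 to 6.25). The log2 change was 0.31 (SE 0.09, 95% interval 0.12 to 0.50, adjusted p = 0.0634). It passed with a filter on probes above the median brightness (adjusted p = 0.0242) or above the 75th percentile (0.00997), with a robust intensity trend (0.0355) and without Tbx3 array 2 (0.0438). The mean of the 3 Acvr1 probes changed by 0.08 (adjusted p = 0.818). The other probes, at the 30.7th and 14.2nd percentile, changed by 0.04 and -0.11 (adjusted p of 0.948 and 0.867). Against the dimmer of these the brightest probe changed more by 0.42 (exact permutation p = 0.013, n = 6 each, adjusted p over 6 pairs = 0.039), and against the other by 0.27 (exact permutation p = 0.0541, adjusted p = 0.0812). Both dimmer probes may lie at background, with the same limit.

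Bmpr1a, the type I receptor that binds BMP2 and BMP4, had 2 probes on the same RefSeq transcript record. On the brighter, at the 93.1st percentile, Control ran from 8.36 to 8.56 (median 8.38) and Tbx3 from 8.20 to 8.33 (median 8.23). After quantile normalization every Tbx3 array was below every Control array. This held for 2.15% of all genes, and for 353 of the 7351 above the 75th percentile of brightness. In the deposited values the groups overlapped, with Tbx3 array 3 (5.81) above Control arrays 1, 3 and 5 (5.79 to 5.8). The log2 change of -0.18 (SE 0.09, 95% interval -0.37 to 0.01) did not pass (adjusted p = 0.46). The other probe changed by 0.06 (adjusted p = 0.917), and a difference in change between the probes was not detectable (-0.24, exact permutation p = 0.0519, n = 6 each, adjusted p = 0.0812). Bmpr2, the BMP type II receptor, changed by 0.10 (95% interval -0.14 to 0.34, adjusted p = 0.858) on the brighter of its probes, at the 57th percentile. Its other probe, at the 2.74th percentile, changed by -0.05 (adjusted p = 0.93).

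**Figure D2:**
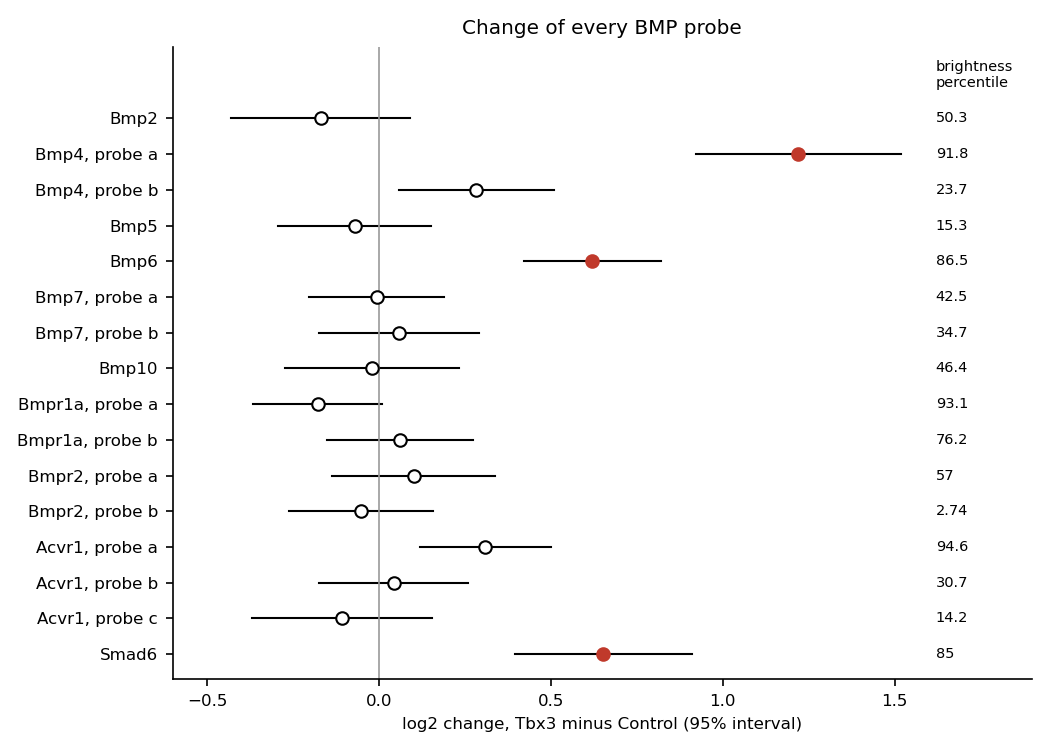
Log2 change, Tbx3 minus Control (x axis), of each of the 16 probes with its 95% interval from limma, and the brightness percentile of the probe at the right. Filled red points passed an adjusted p of 0.05: Bmp4 probe a at 1.22, Bmp6 at 0.62 and Smad6 at 0.65, while every other interval ends at 0.51 or below.

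Smad6, the inhibitory Smad of the BMP branch, lies at chr9:63953076-64022085 and had 1 probe, at the 85th percentile. The Control arrays ran from 6.36 to 6.98 with a median of 6.64 and the Tbx3 arrays from 6.89 to 7.65 with a median of 7.31. The groups overlapped by 1 array on each side, Tbx3 array 3 at 6.89 and Control array 2 at 6.98. The mean rose from 6.65 ± 0.22 to 7.30 ± 0.29 (SD, n = 6 each), a log2 change of 0.65 (SE 0.13, 95% interval 0.40 to 0.91, adjusted p = 0.00141).

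Within the groups, the arrays higher in Bmp4 tended to be higher in Smad6. Pearson's r was 0.89 in Control (rho 0.89) and 0.73 in Tbx3 (rho 0.83), over 6 arrays each. Exact permutation p-values for r were 0.0236 and 0.0903 (2-sided, n = 6), and 0.142 and 0.271 when adjusted over the 6 relations tried, so neither held up. For rho they were 0.0333 and 0.0583, both 0.175 adjusted. Without the 2 arrays farthest from the Bmp4 median, r was 0.73 and 0.82 (n = 4). Bmp6 did not follow Bmp4: r was -0.09 in Control and -0.53 in Tbx3 (rho -0.14 and -0.31), with exact permutation p of 0.907 and 0.287 for r and 0.803 and 0.564 for rho (n = 6). Bmp6 and Smad6 gave r of 0.17 and -0.18 (rho 0.31 and -0.26), with exact permutation p of 0.733 and 0.696 for r and 0.564 and 0.658 for rho (n = 6). For the pairs with Bmp6 the adjusted p ran from 0.575 to 0.907 for r and from 0.79 to 0.803 for rho. Without the 2 arrays farthest from the Bmp4 median, r of Bmp4 with Bmp6 was -0.86 and -0.75 (n = 4). Without the 2 farthest from the Bmp6 median, r of Bmp6 with Smad6 was -0.14 and -0.98 (n = 4).

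**Figure D3:**
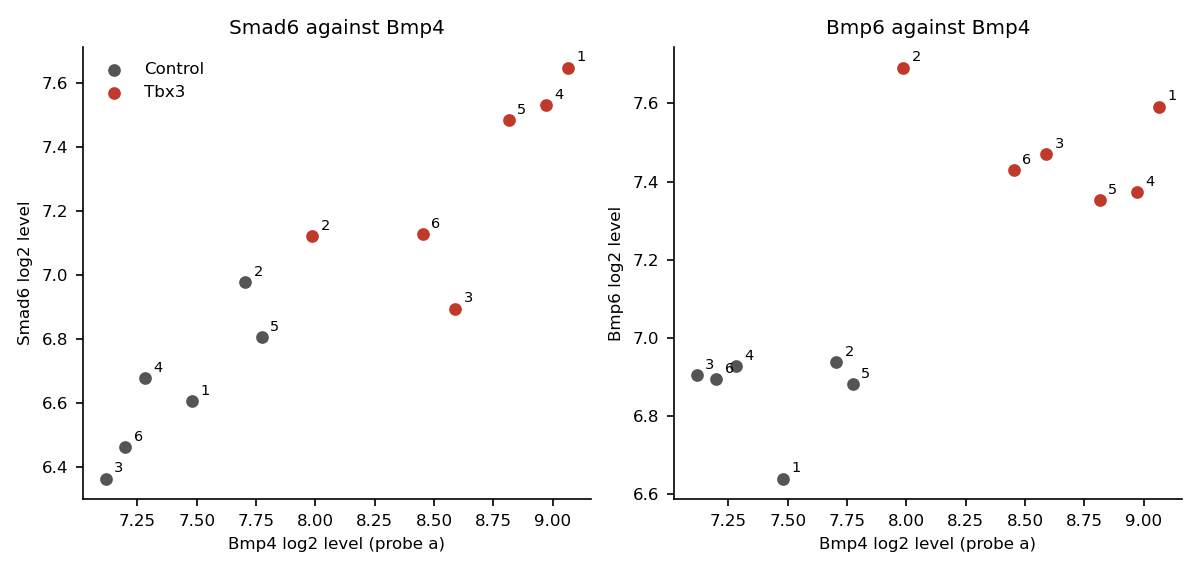
Log2 level of Smad6 (left) and Bmp6 (right) against that of Bmp4 probe a in each array, Control in grey and Tbx3 in red, labelled with the replicate number. Tbx3 array 2 combines the lowest Bmp4 (7.99) with the highest Bmp6 (7.69) of its group.

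Other genes were compared with the 3 that rose by how they varied between arrays once each group's mean was subtracted. Over 12 arrays and 17645 other genes, the closest to Bmp4 were Bgn (r = 0.917), Ptprs (0.915), Tiam1 (0.889), Nsa2 (0.877) and Asic5 (0.875). Of these, Bgn and Ptprs rose as well, by 0.67 and 0.60 (adjusted p of 0.00901 and 0.000956). The closest to Smad6 were Selenon (0.873), Rps27 (0.867), Medag (0.865), Cacna2d2 (0.862) and Brd8 (0.854), of which Medag and Cacna2d2 rose by 0.56 and 0.70 (adjusted p of 0.0014 and 0.0071). The closest to Bmp6 were Ssc4d (0.957), Corin (0.94), Serpinb7 (0.926), Ndufs1 (0.906) and Rims4 (0.886). Corin, the protease that activates atrial natriuretic peptide, fell by 0.52 (adjusted p = 0.000999). These are the highest values of a search over many genes in few arrays and are given as a description.

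Among 71 other genes of the BMP pathway on the table, drawn from 5 lists, 8 rose (11.3%), 1 fell (1.41%) and 62 did not pass. Of all genes 2.97% rose and 2.98% fell, and of those above the 75th percentile of brightness 6.46% and 6.64%. Of 11 other BMP and GDF ligands, 1 rose and 1 fell (median log2 change 0.04). Gdf10, also called BMP3b, ran from 6.92 to 7.65 in Control (median 7.26) and from 7.64 to 9.27 in Tbx3 (median 8.21). It rose by 0.95 (SE 0.18, adjusted p = 0.000945), with the highest value in Tbx3 array 6. Its call was lost with a robust intensity trend (adjusted p = 0.0766), and on the mean of both its probes the change was 0.52. Bmp3, its closest relative, went the other way, from 6.08 to 6.47 in Control (median 6.29) and from 5.31 to 5.83 in Tbx3 (median 5.66). The groups did not overlap, and Bmp3 fell by 0.66 on the log2 scale (SE 0.10, adjusted p = 0.000127). Both are known as atypical ligands that can oppose other BMPs.

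None of 10 further receptors and co-receptors passed (limma), with 1 higher and 2 lower at an unadjusted p under 0.05, against 8.51% and 8.88% of all genes. With alternative settings up to 2 of them passed. The smallest p-values were those of Hjv, a BMP co-receptor of striated muscle and liver (log2 change -0.32, adjusted p = 0.0856), and Eng, the endothelial co-receptor endoglin (0.27, adjusted p = 0.178). Of 21 secreted antagonists and modulators 2 rose (9.52%, against 2.97% of all genes), Fstl1 and Bmp1. Both lay above the 75th percentile of brightness, where 6.46% of all genes rose, while the list median lay at the 64.7th. Fstl1, a follistatin-like glycoprotein that can restrain BMP signalling, ran from 10.54 to 11.40 in Control (median 11.22) and from 11.51 to 12.34 in Tbx3 (median 11.91). The groups did not overlap, and it rose by 0.78 (SE 0.14, adjusted p = 0.000517). Bmp1, which is no ligand but a protease that cleaves chordin and procollagens, rose by 0.40 (SE 0.11, adjusted p = 0.0384). That call was lost in 11 of 25 alternatives, 8 of them the loss of 1 array (Control 1, 2 or 3 or Tbx3 1, 2, 4, 5 or 6, adjusted p from 0.062 to 0.126). On the mean of its 4 probes the change was 0.20 (adjusted p = 0.211). The classical antagonists Nog, Chrd and Grem1 did not pass. Nog changed by -0.12 (adjusted p = 0.81), Chrd by -0.32 (0.186) and Grem1 by -0.08 (0.881).

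Of 14 other Smads and intracellular regulators only Ski, a corepressor of Smads, passed (7.14%, where 2.97% of all genes rose). The median brightness of this list lay at the 89.5th percentile. Of all genes above the 75th percentile 6.46% rose, a share close to that of the list. It rose by 0.39 (SE 0.11, adjusted p = 0.0473), and its call was lost in 12 of 25 alternatives, 8 of them the loss of 1 array (any but Control 5 or 6 or Tbx3 3 or 4, adjusted p from 0.07 to 0.139). The signal-carrying Smad1, Smad4 and Smad5 changed by 0.04, 0.02 and 0.21 (adjusted p of 0.957, 0.974 and 0.344).

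Of 15 BMP target genes 4 rose (26.7%), 0 fell and 11 did not pass, with a median log2 change of 0.14. Of all genes 2.97% rose, and of those above the 75th percentile of brightness 6.46%. The inhibitors of DNA binding Id2, Id3 and Id4 rose by 0.77, 0.81 and 0.64 (SE 0.11, 0.12 and 0.12), with adjusted p of 2.02e-05, 7.24e-05 and 0.000595. Id2 and Id3 did not overlap between the groups, while Id4 ran from 5.28 to 5.69 in Control and from 5.67 to 6.41 in Tbx3. On the mean of both its probes Id4 rose by 0.41 (adjusted p = 0.0357), over 1.5 times less, and its dimmer probe changed by 0.17 (adjusted p = 0.667). The related Id1 changed by 0.23 (95% interval -0.02 to 0.49, adjusted p = 0.493). Tbx3 array 2, the lowest of its group for Bmp4, was also the lowest for Id2 (7.70), Id3 (8.85) and Id4 (5.67). Outside the target list it was the lowest for Fstl1 (11.51), the brightest Acvr1 probe (8.69) and Bmp3 (5.31), which fell. It was not the lowest for Id1 (7.63), Msx1 (6.33), Gdf10 (7.74), Bmp1 (8.59) or Ski (8.22). Nor was it the lowest for Smad6, for which Tbx3 array 3 was. Tbx3 array 2 also had the highest summed smooth muscle, ventricular and epicardial markers of its group. Msx1, a homeobox gene, rose by 0.44 (SE 0.11, adjusted p = 0.0256). Its call was lost in 9 of 24 alternatives, 6 of them the loss of 1 array (Control 1, 4 or 6 or Tbx3 1, 2 or 5, adjusted p from 0.0544 to 0.0814), and on the mean of both its probes (log2 change 0.27, adjusted p = 0.164). Tbx2, which lies downstream of BMP in the atrioventricular canal, and Has2, the hyaluronan synthase of the cushions, changed by -0.03 and -0.06 (adjusted p of 0.965 and 0.929).

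**Figure D4:**
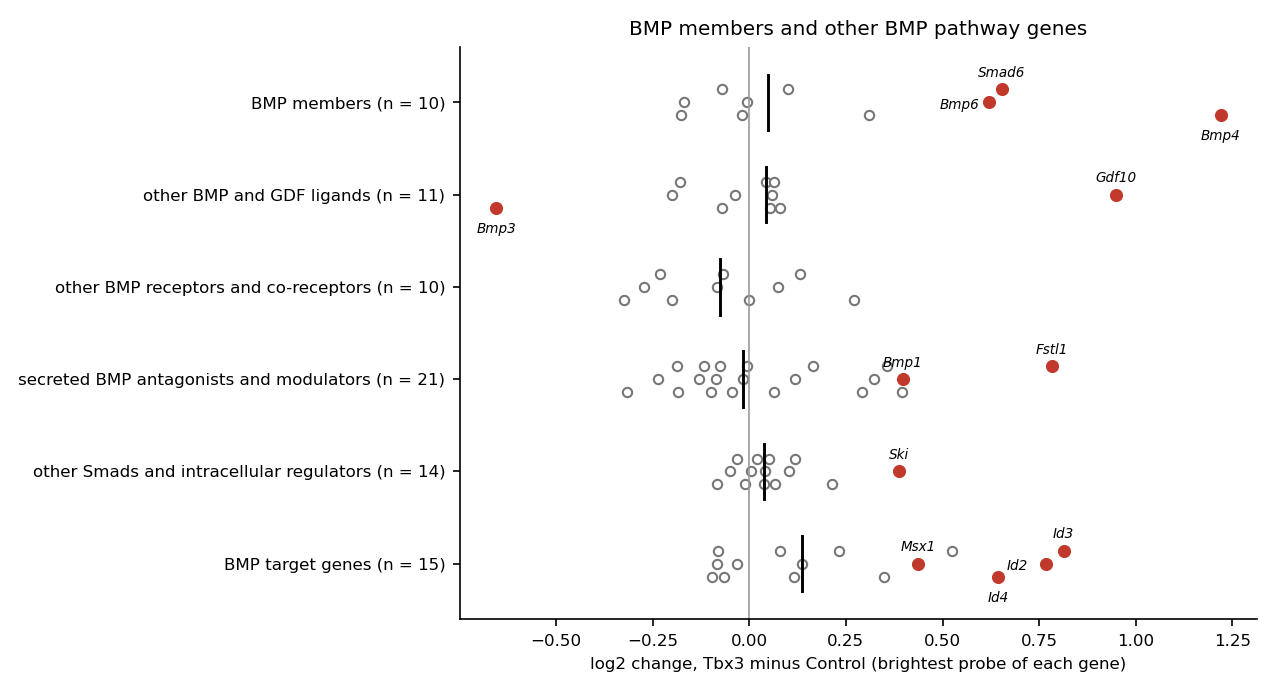
Log2 change, Tbx3 minus Control (x axis), of the brightest probe of each gene, for the 10 BMP genes (top row) and 5 lists of other pathway genes. Red points with names passed an adjusted p of 0.05, open points did not, and black bars are list medians. Apart from Bmp3 at -0.66, the named points lie to the right, from Ski at 0.39 to Bmp4 at 1.22.

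Markers of other cell types differed between the same arrays. Their part in the changes of Bmp4, Bmp6, Smad6 and the other pathway genes was not tested. Beside the counts below, 2.97% of all genes rose and 2.98% fell, and 6.46% and 6.64% above the 75th percentile of brightness. Of 14 fibroblast markers 5 rose and 0 fell, among them Dpt, S100a4 and Lum (log2 changes of 0.88, 1.02 and 0.83). Their summed level, in linear signal units, ran from 20800 to 25600 in Control and from 25000 to 34900 in Tbx3. Of 8 smooth muscle and pericyte markers 3 rose, among them Tagln (0.77), and 2 fell, among them Rgs5 (-1.04), with sums of 5780 to 8650 and 8070 to 12000. Of 12 endothelial and endocardial markers 0 rose and 1 fell (Flt1, -0.47), with sums of 5790 to 6520 and 5770 to 6740. Of 6 erythroid markers 1 rose (Slc4a1, 0.93), with sums of 14700 to 71500 and 58200 to 98600, and of 9 atrial muscle markers 5 fell, among them Nppa (-1.35), with sums of 161000 to 180000 and 117000 to 162000. The epicardial list held 1 fall of 8, the leukocyte list 0 changes of 6, the adipocyte list 0 of 5, the nerve list 1 rise of 4 (Sox10, 0.87), and the ventricular list 1 rise of 5 (Myl2, 0.86). Of 8 skeletal muscle markers 3 fell, Tnni2 (-3.28), Atp2a1 (-1.72) and Acta1 (-0.95), and the sums of that list did not overlap, at 822 to 1780 in Control and 360 to 493 in Tbx3. No value on the arrays is 0, and the fibroblast marker Tcf21 lay at the 23.3rd percentile of brightness.

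**Figure D5:**
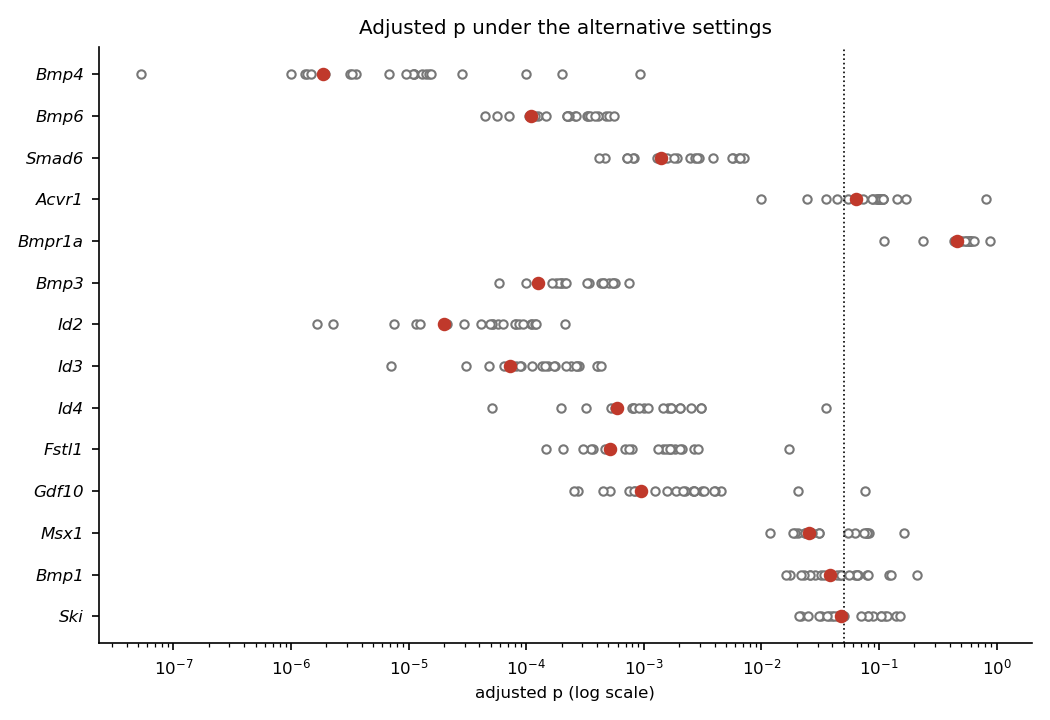
Adjusted p (x axis, log scale) of the brightest probe of 14 genes, as reported (red) and under each alternative setting (open points, where the mean of a gene's probes counts as 1 setting), with a dotted line at 0.05. Bmp4, Bmp6 and Smad6 stay left of the line at every point, with highest values of 0.000936, 0.000554 and 0.00705. Acvr1, Gdf10, Msx1, Bmp1 and Ski have points on both sides.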

How the data were processed

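Per the labels' protocols, column-purified total RNA (250 ng) was amplified with biotin and hybridised to beadchips. The authors deposited 1 value on a log scale for each probe on each array, with their background step, normalization and log base not given in the sources used here. These deposited values were taken as natural log values: on base e they span intensities of 13.9 to 49513, within a 16-bit scanner's 65535, while base 2 would end at 1795. This makes base e plausible and does not settle it. Log2 levels were made from them by dividing through ln 2.

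Of 46133 rows, 10 empty and 9 repeated ones were dropped, leaving 46114 probes. Array medians differed by at most 0.0866 log2 and interquartile ranges by 20.4%, so arrays were quantile normalized (limma 3.58.1, R 4.3.3). Groups and replicate numbers came from the sample titles. Gene names came from the platform annotation, brought up to date with RefSeq (GRCm38.p6). Each gene was represented by its brightest probe.

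Tbx3 minus Control was fitted to all probes in limma (lmFit, eBayes, 2-sided, no covariate), with p-values adjusted by Benjamini-Hochberg across the whole table and called at 0.05. No set test was made. Probes of a gene were compared by an exact permutation test of their per-array difference. Named genes were all probes of the 10 genes, every pathway list gene past the threshold (or the 2 with the smallest p), up to 3 markers a list past it, and the 5 genes closest in pattern to each BMP gene that rose. Nog, Chrd, Grem1, Id1, Smad1, Smad4, Tbx2, Has2 and Tcf21 were named outside that rule, after their values were seen. The genes, lists and settings were chosen with earlier results of these data known, so the calls among them are no independent support. Alternatives covered scaling, filters on dim probes, variance model, blocks, averaging a gene's probes, threshold, log base, repeated rows and arrays left out. The fit was tested on simulated data.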

Additional observations from a re-analysis of the deposited data

Results flagged for a closer look

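Of 50 groups of 6 arrays, from the 16 BMP probes and the 9 other pathway genes that passed, 6 held an array whose gap to its nearest neighbour exceeded Dixon's 95% critical value as a share of the group's range. Chance alone flags about 1 in 20 groups. Bmp6 stood at 6.64 in Control array 1, where the next lowest Control array was at 6.88, and leaving that array out kept the call. Bmpr2 stood at 5.296 in Control array 3 and the dimmer Bmpr1a probe at 5.833 in Control array 4, both below the rest of their group. Control array 3 was also low for Fstl1 (10.54) and for Id3 (7.787). Id2 was low in Tbx3 array 2 (7.702), the array with the lowest Bmp4 of its group.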

How the results depend on the processing

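The calls of Bmp4, Bmp6 and Smad6 held in every alternative listed with the processing, and no call reversed its direction. In a separate fit within even replicate numbers, 3 arrays a group, Smad6 did not pass (adjusted p = 0.25 in limma). The log2 change ran from 0.75 to 1.35 for Bmp4, from 0.43 to 0.65 for Bmp6 and from 0.45 to 0.73 for Smad6, the low ends of Bmp6 and Smad6 being those of the table read in base 2. The number of the 10 BMP genes called was 3 or 4 in 25 alternatives, the fourth being Acvr1, and that of the 71 other pathway genes ran from 6 to 11. At an adjusted p of 0.01, 896 probes passed in place of 1592, a difference that the stricter threshold itself makes. With the array of one animal left out the count ran from 1187 to 1613. Averaging a gene's probes gives no count of probes.

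Replicate numbers did not pair the arrays: after subtracting group means, same-numbered arrays correlated between -0.02 and 0.0688, and 2 of 12 arrays correlated best with their own number. With the replicate number as a block 1580 probes, 3 of the 10 BMP genes and 9 of the 71 pathway genes passed, and Acvr1 had an adjusted p of 0.101. Within odd and even numbers, 3 arrays a group each, Bmp4 changed by 1.37 and 1.07, Bmp6 by 0.66 and 0.58 and Smad6 by 0.75 and 0.55. The adjusted p of Smad6 was 0.0268 and 0.25 (limma), and the difference between odd and even did not pass (adjusted p = 0.999 for each). Dim probes, among them those of Bmp2, Bmp5, Bmp7 and Bmp10, limit what can be said of those ligands.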
